A study of Homo sapiens with 12 samples.

Results

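Cells that respond to growth factors through the RAS-RAF-MEK-ERK cascade also make the proteins that shut it off, and 9 genes of this feedback layer are described here in U251-APP cells that had lost 1 of 2 CTCF-binding sites. The set holds DUSP4, DUSP5, DUSP6, SPRY2, SPRY4, SPRED1, SPRED2, SPRED3 and PHLDA1, chosen by symbol from the 11178 genes listed. The filter on low values kept 11128 genes, all 9 among them. They were chosen because the layer appeared to move in opposite directions in the knockouts. All 3 comparisons of the groups therefore count as used in the choice, and the levels and fold changes of these genes are a description without a test.

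A receptor tyrosine kinase that binds its ligand activates RAS, RAS activates RAF, and RAF passes the signal through MEK to ERK, the kinase that enters the nucleus and switches on target genes. Among those targets are brakes on the same route. The dual-specificity phosphatases (DUSPs) strip the activating phosphates from ERK, Sprouty proteins act between the receptor and RAF, and SPRED proteins bring the RAS-inactivating protein neurofibromin to the membrane. Glioblastomas often carry alterations that raise signalling through this route, and transcripts of these brakes are commonly read as a sign of ERK output.

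U251 is a human glioblastoma line, and U251-APP cells stably express the amyloid precursor protein with the changes K670N and M671L, which the cells of every group carry. CTCF is an insulator protein that anchors chromatin loops. In CTCF-A KO and CTCF-B KO cells, Cas9 with a pair of guide RNAs had deleted the binding site of that name, and single-cell clones were grown out and checked by sequencing. Wild-type cells kept both sites. The labels list Cas9 editing as the treatment of all 12 samples, wild type included, and do not say whether wild-type cells were cloned or whether the 4 libraries of a group came from 1 clone, from several clones or from repeat cultures. A p-value therefore measures the spread between these libraries, which may be technical, and what sets 1 clone apart cannot be told apart from the loss of the site.

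Total RNA of each library was sequenced as read pairs, and the deposited values are normalized expression on a log2 scale. Depth is unknown. Linear values below are 2 raised to the deposited value. Of the 11 astrocyte and glioma markers looked for, 8 were listed, among them GFAP, VIM, SOX2 and CD44, while S100B, ALDH1L1 and AQP4 were not. The summed level of the 8 was 16.8 to 17.0 in CTCF-A KO, 16.7 in every CTCF-B KO library and 17.3 to 17.5 in wild type, on the log2 scale. None of the 6 oligodendrocyte, 6 microglia and 5 epithelial markers was listed, whereas 3 of 6 neuronal markers and 1 of 5 endothelial markers (KDR) were. GFAP, the intermediate filament of astrocytes, averaged 12.57 ± 0.08 in CTCF-A KO, 12.83 ± 0.05 in CTCF-B KO and 15.68 ± 0.16 in wild type (log2, mean ± SD, n = 4). VIM averaged 15.94, 15.52 and 15.92 and KDR 9.11, 9.45 and 10.29 in the same order. The part of these markers in the results was not tested.

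CTCF-A KO libraries stood apart from one another. In CTCF-A KO replicate 1 the 10% of genes with the highest GC content lay 0.96 above the 10% with the lowest, measured as the median log2 deviation from the wild-type mean. The same tilt was 0.45 in replicate 2, 0.66 in replicate 3 and 0.06 in replicate 4 of CTCF-A KO, against -0.10 to 0.03 in CTCF-B KO and -0.15 to 0.09 in wild type. The trend of each library with GC content and transcript length was therefore also taken out. Separately, CTCF-A KO was represented by its replicate 4 alone. For the feedback genes, the fold change of CTCF-A KO against wild type is given as deposited and in both of these ways. For other results these values are given only in part, and a value without them is as deposited.

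Sequences upstream of the transcription start came from RefSeq (GRCh38.p14) and were found for 7 of the 9 genes, in 11 entries. The 250 bases upstream of a start are printed here for SPRY4, DUSP6 and SPRY2, which were lower in CTCF-A KO and higher in CTCF-B KO, and for SPRED3, whose entry was the one with an AP-1 motif. Capitals mark GGAA or TTCC, the core letters that ETS factors read on either strand, in the sequences of DUSP6, SPRY4 and SPRY2. In the SPRED3 sequence they mark the AP-1 motif. All are written 5′ to 3′ on the strand of the gene. The RefSeq starts of DUSP6, SPRY4 and SPRED3 used here lie 770, 2208 and 1370 bases inside the gene bounds that GENCODE gives, and that of SPRY2 lies 175 bases outside them.
DUSP6, chr12:89352502-89352751, minus strand: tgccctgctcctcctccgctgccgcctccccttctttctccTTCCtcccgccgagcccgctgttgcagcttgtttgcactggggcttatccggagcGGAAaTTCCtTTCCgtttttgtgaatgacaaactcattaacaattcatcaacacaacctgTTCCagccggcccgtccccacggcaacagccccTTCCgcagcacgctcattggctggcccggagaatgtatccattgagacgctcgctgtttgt
SPRY4, chr5:142324248-142324497, minus strand: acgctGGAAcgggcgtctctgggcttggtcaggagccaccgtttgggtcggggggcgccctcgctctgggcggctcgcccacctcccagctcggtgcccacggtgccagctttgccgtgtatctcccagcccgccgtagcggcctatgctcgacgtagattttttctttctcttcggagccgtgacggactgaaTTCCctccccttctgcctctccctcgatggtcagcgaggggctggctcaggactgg
SPRY2, chr13:80341127-80341376, minus strand: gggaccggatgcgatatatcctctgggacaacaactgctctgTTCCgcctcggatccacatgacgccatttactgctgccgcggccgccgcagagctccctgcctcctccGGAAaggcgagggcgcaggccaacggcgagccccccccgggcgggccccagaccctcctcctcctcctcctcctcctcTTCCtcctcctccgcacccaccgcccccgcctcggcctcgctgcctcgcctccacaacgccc
SPRED3, chr19:38389541-38389790, plus strand: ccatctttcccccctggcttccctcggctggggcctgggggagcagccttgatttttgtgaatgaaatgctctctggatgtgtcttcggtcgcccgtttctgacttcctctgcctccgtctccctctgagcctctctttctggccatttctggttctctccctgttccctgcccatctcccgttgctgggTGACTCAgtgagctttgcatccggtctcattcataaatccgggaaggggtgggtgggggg
The DUSP6 window held 6 GGAA or TTCC tetramers, that of SPRY4 held 2 and that of SPRY2 held 3, beside a median of 3 over 35116 promoters of the same length. The printed SPRED3 window held 5, which are not marked, and the entries not printed held 3 to 5. The tetramer was present in 92.7% of those promoters, so most promoters hold it. The search for this tetramer was added after the data had been seen. Searched on both strands, the AP-1 motif TGANTCA occurred in 1 of the 11 entries and in 6.57% of all promoters. The cyclic AMP response element TGACGTCA (1.65% of all promoters), the longer ETS motif CCGGAAG (8.52%, which contains GGAA) and the CArG box of serum response factor (1.16%) occurred in none of the 11. A match is a description of letters, not of binding, and the lack of one says only that these letters are not in this window.

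Side by side, the set did not behave as 1 block. As deposited, and by libraries that did not overlap, 5 genes lay below wild type in CTCF-A KO and above it in CTCF-B KO. They were DUSP4, DUSP6, SPRY2, SPRY4 and SPRED2. The same placing was found in 4.82% of all 11128 genes. DUSP5 and PHLDA1 lay above wild type in both knockouts, as did 8.66% of all genes. SPRED1 and SPRED3 fell under neither description. With the trend taken out, SPRED3 ran from -0.42 to -0.16 relative to the wild-type mean in CTCF-A KO. It ran from 0.83 to 0.96 in CTCF-B KO and from -0.09 to 0.13 in wild type. SPRED3 then took the placing of the 5 genes, and CTCF-A KO and wild-type libraries of DUSP5 overlapped. Since these comparisons chose the set, nothing is read from the counts. The opposite directions named for the set thus held for 5 of its 9 genes as deposited. For SPRED2 the deposited gap between CTCF-B KO and wild-type libraries was 0.01 on the log2 scale.

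**Figure D1:**
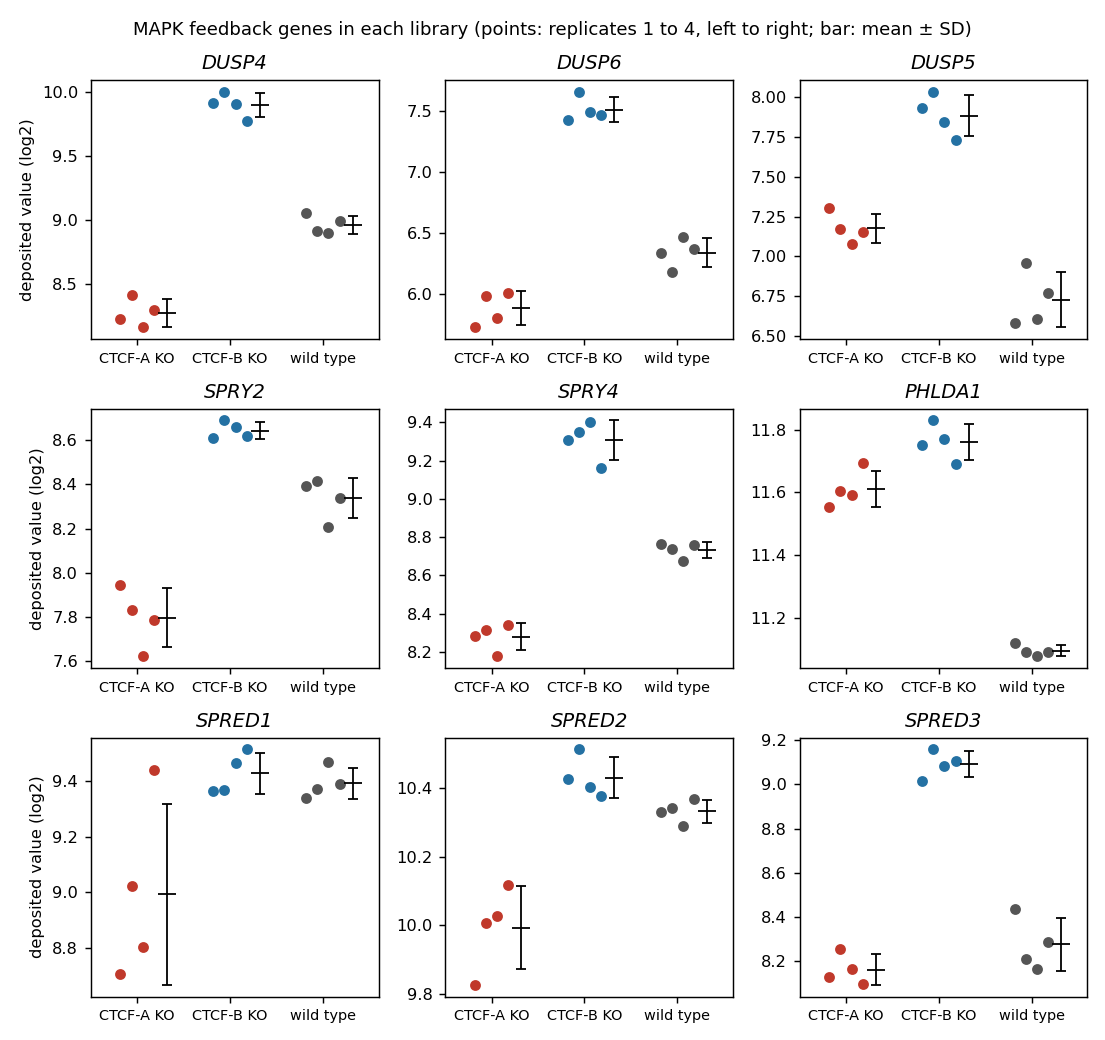
Normalized log2 level (vertical axis) of each of the 9 feedback genes in CTCF-A KO, CTCF-B KO and wild-type libraries, with 1 point per library and a bar for the mean ± SD of 4 libraries. DUSP4, DUSP6, SPRY2 and SPRY4 show 3 separate levels with CTCF-B KO on top, PHLDA1 is higher in both knockouts than in wild type, and SPRED1 in CTCF-A KO runs from 8.71 to 9.44.

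DUSP4, DUSP5 and DUSP6 form the ERK-directed end of the layer. DUSP4 (ENSG00000120875, chromosome 8, 29333064 to 29350668 on GRCh38, minus strand) encodes a nuclear phosphatase that acts on ERK and related kinases. Its log2 level in replicates 1 to 4 was 8.22, 8.41, 8.16 and 8.29 in CTCF-A KO libraries, 9.91, 10.00, 9.91 and 9.78 in CTCF-B KO libraries, and 9.05, 8.91, 8.90 and 8.99 in wild type. All CTCF-B KO libraries lay above all wild-type libraries, which lay above all CTCF-A KO libraries. The log2 fold change against wild type was -0.69 ± 0.07 (SE from the model of 12 libraries, 4 per group, here and below) in CTCF-A KO cells and 0.94 ± 0.07 in CTCF-B KO cells. The CTCF-A KO value was -0.73 with the GC and length trend taken out and -0.67 with replicate 4 alone. CTCF-A KO minus CTCF-B KO was -1.63 on the log2 scale, so that the level in CTCF-B KO was 3.09-fold that in CTCF-A KO. In bulk RNA such as this, fewer cells expressing a gene and less RNA per cell cannot be told apart.

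DUSP6 (ENSG00000139318, chromosome 12, 89347232 to 89353271, minus strand) encodes the cytoplasmic phosphatase that is specific to ERK, and the sequence before its RefSeq start is printed above. Its log2 level was 5.73, 5.99, 5.81 and 6.01 in CTCF-A KO libraries, 7.42, 7.66, 7.49 and 7.47 in CTCF-B KO libraries, and 6.33, 6.18, 6.47 and 6.37 in wild type. Here too the 3 groups did not overlap, and CTCF-A KO came closest to wild type, with a gap of 0.17 between the nearest libraries. The log2 fold change was -0.45 ± 0.09 in CTCF-A KO cells and 1.17 ± 0.09 in CTCF-B KO cells against wild type. No other gene of the 9 had a value in either knockout as far from 0 as the 1.17 of DUSP6. On the linear scale CTCF-A KO was at 0.73-fold and CTCF-B KO at 2.25-fold of the wild-type level. Without the trend the log2 value of CTCF-A KO was -0.38, and replicate 4 alone gave -0.33.

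DUSP5 (ENSG00000138166, chromosome 10, 110497838 to 110511544, plus strand) encodes a nuclear phosphatase specific to ERK, which it also holds in the nucleus. In contrast to DUSP4 and DUSP6 it was higher than wild type in both knockouts. The log2 level was 7.30, 7.17, 7.08 and 7.15 in CTCF-A KO libraries, 7.93, 8.04, 7.85 and 7.73 in CTCF-B KO libraries, and 6.58, 6.96, 6.61 and 6.77 in wild type. No library of 1 group reached into another, although the gap between CTCF-A KO and wild type was 0.12. The log2 fold change was 0.45 ± 0.09 in CTCF-A KO cells and 1.16 ± 0.09 in CTCF-B KO cells. With the GC and length trend taken out, the CTCF-A KO value was 0.26, and with replicate 4 alone it was 0.42. Without the trend CTCF-A KO and wild type overlapped. Relative to the wild-type mean, CTCF-A KO replicate 3 was then at 0.13 and wild-type replicate 2 at 0.22. The fold change of DUSP5 stayed above 0. Its sign in CTCF-A KO was thus opposite to that of DUSP4 and DUSP6 under all 3 treatments of the data.

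Sprouty proteins hold back RAS and RAF activation downstream of growth factor receptors, and SPRY2 also binds the ubiquitin ligase CBL, which removes receptors from the cell surface. SPRY2 (ENSG00000136158, chromosome 13, 80335976 to 80340951, minus strand) was at 7.94, 7.83, 7.62 and 7.78 in CTCF-A KO libraries, 8.61, 8.69, 8.66 and 8.62 in CTCF-B KO libraries, and 8.39, 8.41, 8.21 and 8.34 in wild type, as log2 levels. The groups were separate, with CTCF-A KO further from wild type than CTCF-B KO was. Its log2 fold change was -0.54 ± 0.07 in CTCF-A KO cells and 0.31 ± 0.07 in CTCF-B KO cells, and the first of these was -0.61 without the trend and -0.55 with replicate 4 alone.

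SPRY4 (ENSG00000187678, chromosome 5, 142310427 to 142326455, minus strand) was at 8.28, 8.32, 8.18 and 8.34 in CTCF-A KO libraries, 9.31, 9.35, 9.40 and 9.16 in CTCF-B KO libraries, and 8.77, 8.74, 8.67 and 8.76 in wild type, again as log2 levels. Its 3 groups were likewise separate. Against wild type the log2 fold change was -0.45 ± 0.06 in CTCF-A KO cells and 0.57 ± 0.06 in CTCF-B KO cells, and CTCF-A KO minus CTCF-B KO was -1.03. The CTCF-A KO value was -0.47 without the trend and -0.39 with replicate 4 alone. SPRY1 and SPRY3, the other Sprouty genes, were looked for and were not among the genes listed.

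SPRED proteins carry a Sprouty-related domain, and SPRED1 recruits neurofibromin to the membrane, where it returns RAS to its inactive form. SPRED1 (ENSG00000166068, chromosome 15, 38252326 to 38357249, plus strand) had log2 levels of 8.71, 9.02, 8.80 and 9.44 in CTCF-A KO libraries, 9.36, 9.37, 9.46 and 9.51 in CTCF-B KO libraries, and 9.34, 9.37, 9.47 and 9.39 in wild type. CTCF-A KO replicate 4 lay among the wild-type libraries and the other 3 CTCF-A KO libraries lay below them. The log2 fold change in CTCF-A KO was -0.40 ± 0.12, but it was 0.07 ± 0.04 with the GC and length trend taken out and 0.05 with replicate 4 alone. In CTCF-B KO it was 0.04 ± 0.12, an SE that also holds the spread of the CTCF-A KO libraries, and 0.06 ± 0.04 with the trend taken out.

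SPRED1 had the lowest transcript GC content of the 9 genes, 38.9%, and its 4 CTCF-A KO libraries followed the tilt. Replicates 1, 3 and 2, with tilts of 0.96, 0.66 and 0.45, stood at -0.69, -0.59 and -0.37 relative to the wild-type mean, and replicate 4, with a tilt of 0.06, at 0.05. Taking out the trend placed the 4 libraries between -0.01 and 0.15 of the wild-type mean. Whether RNA quality or library preparation had a part in this was not tested.

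**Figure D2:**
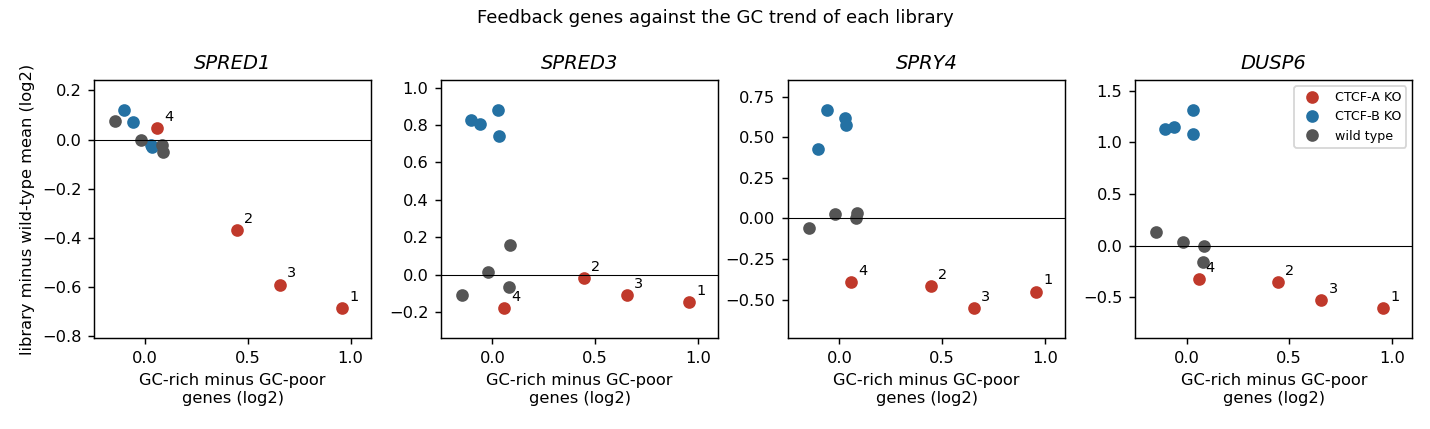
Deviation of SPRED1, SPRED3, SPRY4 and DUSP6 from the wild-type mean in each library (vertical axis, log2) against the tilt of that library (horizontal axis, median log2 deviation of the most GC-rich 10% of genes minus that of the most GC-poor 10%). SPRED1 falls with the tilt through the 4 CTCF-A KO libraries, which span 0.06 to 0.96, while the CTCF-B KO values of SPRED3, SPRY4 and DUSP6 lie above wild type at tilts near 0.

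SPRED2 (ENSG00000198369, chromosome 2, 65310851 to 65432637, minus strand) encodes a protein of the same mode of action. Its log2 level was 9.83, 10.01, 10.03 and 10.12 in CTCF-A KO libraries, 10.43, 10.51, 10.40 and 10.38 in CTCF-B KO libraries, and 10.33, 10.34, 10.29 and 10.37 in wild type. CTCF-A KO was clear of wild type by 0.17, whereas CTCF-B KO and wild type all but touched. As a log2 fold change this was -0.34 ± 0.06 in CTCF-A KO, -0.36 with the trend taken out and -0.22 with replicate 4 alone. In CTCF-B KO it was 0.10 ± 0.06, with a 95% interval of -0.03 to 0.22. That interval also holds the spread of CTCF-A KO, since the model shares 1 estimate over the groups. The SD was 0.12 in CTCF-A KO, 0.06 in CTCF-B KO and 0.03 in wild type.

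SPRED3 (ENSG00000188766, chromosome 19, 38388421 to 38399587, plus strand) encodes the third SPRED protein, and the AP-1 motif printed above lies upstream of 1 of its 2 entries. Its log2 level was 8.13, 8.26, 8.17 and 8.10 in CTCF-A KO libraries, 9.02, 9.16, 9.08 and 9.11 in CTCF-B KO libraries, and 8.44, 8.21, 8.17 and 8.29 in wild type. As deposited, CTCF-A KO and wild-type libraries overlapped, and CTCF-B KO lay 0.58 above the highest wild-type library. Its log2 fold change was 0.81 ± 0.06 in CTCF-B KO. In CTCF-A KO it was -0.11 ± 0.06, with a 95% interval of -0.25 to 0.02, -0.28 with the trend taken out and -0.18 with replicate 4 alone. At 58.8%, its transcript had the highest GC content of the 9.

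PHLDA1 (ENSG00000139289, chromosome 12, 76025447 to 76033932, minus strand) encodes a pleckstrin-homology-like protein that growth factors induce and that has been linked to restraint of receptor signalling. Its log2 level was 11.55, 11.60, 11.59 and 11.69 in CTCF-A KO libraries, 11.75, 11.83, 11.77 and 11.69 in CTCF-B KO libraries, and 11.12, 11.09, 11.08 and 11.09 in wild type. Both knockouts lay well above wild type and overlapped with each other. The log2 fold change was 0.52 ± 0.04 in CTCF-A KO cells and 0.66 ± 0.04 in CTCF-B KO cells. With replicate 4 alone the CTCF-A KO value was 0.60. Taking out the trend gave 0.82 and 0.75. The difference between CTCF-A KO and CTCF-B KO was thus -0.15 as deposited and 0.07 without the trend, a change of sign. With replicate 4 alone it was -0.07. Relative to the wild-type mean, CTCF-A KO replicates 1 to 4 stood at 0.46, 0.51, 0.50 and 0.60 as deposited. They stood at 0.99, 0.83, 0.83 and 0.63 without the trend, so taking it out widened their spread for this gene.

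**Figure D3:**
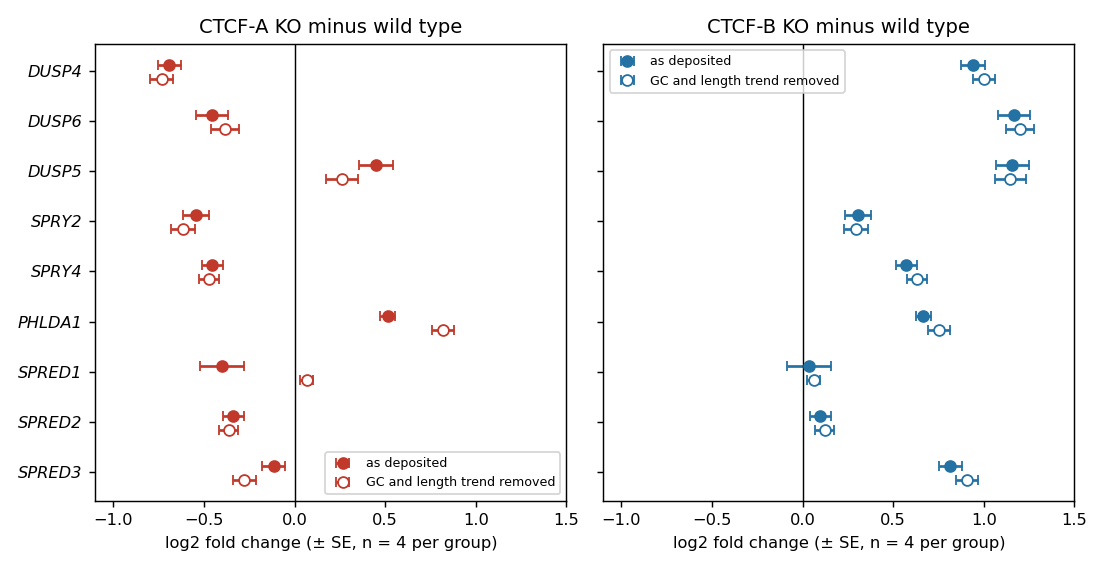
Log2 fold change against wild type (horizontal axis, point ± SE) of the 9 feedback genes in CTCF-A KO and CTCF-B KO, filled for the values as deposited and open after the GC and length trend was taken out. The open and filled points differ most for SPRED1, -0.40 and 0.07, in CTCF-A KO, and all 9 points of CTCF-B KO lie at or above 0.04.

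Because these comparisons chose the 9 genes, the adjusted p only sorts them in the counts that follow and is no test of them. Counted over the set, CTCF-A KO against wild type had 2 genes higher, 6 lower and 1 (SPRED3) not past an adjusted p of 0.05 (limma, Benjamini-Hochberg over 11128 genes). Of all genes 62.9% passed, 31.8% as higher and 31.1% as lower. The median log2 fold change of the 9 was -0.40, and that of all genes was 0.00. The median of the 9 was -0.36 with the trend taken out and -0.22 with replicate 4 alone. With the trend taken out the counts were again 2 higher and 6 lower, with SPRED1 in place of SPRED3 as the gene that did not pass (61.6% of all genes passed), and with replicate 4 alone they were 2 higher and 5 lower (41.8%). CTCF-B KO against wild type had 7 higher, 0 lower and 2 (SPRED1 and SPRED2) not past it, where 39.4% of all genes passed, 18.9% as higher and 20.6% as lower, and the median was 0.66 beside 0.00. The counts were the same without the trend (54% of all genes). Which genes passed in CTCF-B KO also depended on the spread of CTCF-A KO, which the model shares. Of all genes 4389 passed, against 6601 in only the 8 libraries compared.

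For CTCF-A KO against CTCF-B KO all 9 were lower, where 66% of all genes passed, 33.4% as higher and 32.6% as lower, and the median was -0.85 beside -0.01. With the trend taken out (68.5% of all genes) and with replicate 4 alone (54.5%) 7 of the 9 were lower, and SPRED1 and PHLDA1 did not pass. The libraries of CTCF-A KO and wild type did not overlap for 7 of the 9 genes (47.7% of all genes), those of CTCF-B KO and wild type for 8 (53.6%), and those of both knockouts for 7 (53.5%). These comparisons chose the set and share libraries, so nothing further is read from the counts.

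The spread between libraries was small beside most of these differences. The SD of the 9 genes over 4 libraries ran from 0.06 to 0.33 in CTCF-A KO, with SPRED1 the highest, from 0.04 to 0.13 in CTCF-B KO and from 0.02 to 0.17 in wild type, with DUSP5 the highest in both. Medians over the 9 were 0.11, 0.07 and 0.07, against 0.14, 0.06 and 0.06 over all genes, in the order CTCF-A KO, CTCF-B KO and wild type.

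Levels between genes can be compared only per length, here as the linear normalized value per kb of exon. PHLDA1 was the highest of the 9 in every group, at 388 in CTCF-A KO, 430 in CTCF-B KO and 271 in wild type, followed by SPRED2 at 198, 268 and 250 in the same order. DUSP6 was the lowest in every group, at 12.8, 39.3 and 17.5. DUSP4 changed place most: it ranked 8 of 9 in CTCF-A KO, 3 in CTCF-B KO and 5 in wild type. SPRED1 ranked 4 in CTCF-A KO, 8 in CTCF-B KO and 4 in wild type.

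The 9 genes lie on 8 chromosomes, with DUSP6 and PHLDA1 on the same one, and their neighbours were examined within 5 Mb on either side. Around DUSP5, 19 neighbours had a median log2 fold change of -0.61 in CTCF-A KO against wild type, and 0 passed as higher and 18 as lower, beside 0.45 for DUSP5 itself. With the trend taken out the median was -0.30, with 1 higher and 13 lower. Around SPRED1, 58 neighbours had a median of -0.22 in CTCF-B KO against wild type, with 1 higher and 28 lower, beside 0.04 for SPRED1. Around SPRED3, the median over 122 neighbours was 0.27 in CTCF-A KO against wild type, with 77 higher and 8 lower, and it was -0.01 in CTCF-B KO, with 17 higher and 24 lower, where SPRED3 stood at -0.11 and 0.81. Taking out the trend left a median of 0.11 around SPRED3 in CTCF-A KO, with 53 higher and 12 lower. Around SPRED2, 47 neighbours had a median of -0.17 in CTCF-B KO against wild type, with 1 higher and 17 lower, beside 0.10 for SPRED2. Over all genes 31.8% passed as higher and 31.1% as lower in CTCF-A KO, and 18.9% and 20.6% in CTCF-B KO. These neighbourhoods were picked after their values were seen, and whether position had a part in any of the 9 was not tested.

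Outside the set, the genes with the most similar profile over the 12 libraries were found by Pearson's r of the log2 levels, 3 for each member. The libraries share the 3 group means and the GC tilt, so r reflects those as well. For DUSP4 the closest was SH2B3, an adaptor protein of cytokine signalling, with r = 0.995, and SH2B3 was also the closest to SPRY4, with r = 0.993. FKBP11 was among the closest 3 of both. For DUSP6 it was CXCL8, which encodes the chemokine interleukin-8, with r = 0.995 and a log2 fold change of -0.83 in CTCF-A KO cells and 2.52 in CTCF-B KO cells. For SPRY2 the list was AGK, FYN and ETV4, the last an ETS factor that ERK induces, with r = 0.975. KLF2 was the closest to DUSP5 with r = 0.985, STX1A to SPRED3 with r = 0.985, POLR1B to SPRED2 with r = 0.988, and SEL1L3 to PHLDA1 with r = 0.989. SPRED1, whose CTCF-A KO libraries followed the GC tilt, had UBR3, TMEM106B and TMX3, all at r = 0.99.

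A further 4 lists place the brakes in their pathway: ERK output genes, the components of the cascade, other brakes, and the growth factors and receptors above it. Their genes were tested in the model of all 12 libraries, with limma and Benjamini-Hochberg adjustment over 11128 genes, and the shares of all genes that passed are those given above. All sizes of change given for these genes are log2 fold changes against wild type, as deposited unless stated otherwise. No list was tested as a set.

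The ERK output list, genes that ERK induces in many cell types, had 17 of 23 genes listed. In CTCF-B KO against wild type 13 of the 17 rose, 3 fell and 1 did not pass, with a median log2 fold change of 0.53. In CTCF-A KO against wild type 6 rose, 8 fell and 3 did not pass, with a median of -0.11. CTCF-A KO against CTCF-B KO had 5 higher, 9 lower and 3 not passing, with a median of -0.53. In CTCF-A KO 5 rose and 10 fell with the trend taken out, at a median of -0.30, and 5 rose and 6 fell with replicate 4 alone.

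ETS factors of the PEA3 group, which bind GGAA and are induced by ERK, differed from wild type in both knockouts. ETV4 averaged 6.27 ± 0.10 in CTCF-A KO, 7.71 ± 0.11 in CTCF-B KO and 7.18 ± 0.04 in wild type (log2, mean ± SD, n = 4, limma adjusted p = 3.83e-07 for CTCF-A KO and 7.91e-05 for CTCF-B KO). ETV5 averaged 10.04 ± 0.01 in CTCF-A KO, 11.44 ± 0.09 in CTCF-B KO and 10.36 ± 0.03 in wild type (limma adjusted p = 7.48e-05 and 2.54e-09, in the same order). ETV1 fell by 0.88 in CTCF-A KO and rose by 1.04 in CTCF-B KO, and the CTCF-A KO value was -0.41 with the trend taken out and -0.45 with replicate 4 alone. All 3 therefore stood below wild type in CTCF-A KO and above it in CTCF-B KO, the order seen for DUSP4, DUSP6, SPRY2 and SPRY4.

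EGR1, an immediate early transcription factor, rose in CTCF-B KO by 1.09 ± 0.08 (limma adjusted p = 3.34e-07). In CTCF-A KO it fell by 0.27 ± 0.08 (limma adjusted p = 0.0129), which no longer passed with replicate 4 alone (-0.17, limma adjusted p = 0.26) and was -0.44 with the trend taken out (limma adjusted p = 0.000591). MAFF, a small basic leucine zipper factor, rose by 0.73 in CTCF-B KO and fell by 0.29 in CTCF-A KO, the second also not passing with replicate 4 alone (-0.27, limma adjusted p = 0.084) and at -0.48 with the trend taken out (limma adjusted p = 0.000248). PLAUR, the urokinase receptor, rose by 0.71 in CTCF-B KO. In CTCF-A KO its log2 fold change was 0.17 as deposited and -0.03 with the trend taken out.

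Other ERK output genes did not follow that order. CCND1, which encodes cyclin D1, averaged 10.21 ± 0.18 in CTCF-A KO, 11.42 ± 0.10 in CTCF-B KO and 11.58 ± 0.08 in wild type (log2, mean ± SD, n = 4). It fell by 1.36 in CTCF-A KO (limma adjusted p = 3.51e-08), and in CTCF-B KO its value of -0.15 did not pass (limma adjusted p = 0.154). SPHK1, a lipid kinase that makes sphingosine-1-phosphate, rose in both, by 1.13 in CTCF-A KO cells and 0.88 in CTCF-B KO cells. JUNB, an AP-1 subunit, rose by 1.12 in CTCF-A KO cells and 0.64 in CTCF-B KO cells, UPP1, a uridine phosphorylase, by 0.69 and 0.53, and IER2, an immediate early gene, by 0.54 and 0.31 in the same order. With the trend taken out the CTCF-A KO values of JUNB, UPP1 and IER2 were 0.94, 0.62 and 0.35. With replicate 4 alone they were 0.89, 0.50 and 0.37. LIF, a cytokine, fell by 0.75 in CTCF-B KO, and its -0.11 in CTCF-A KO did not pass. The CTCF-A KO value of LIF with the trend taken out was -0.27 and passed (limma adjusted p = 0.0113). SPHK1, JUNB, UPP1 and IER2 thus shared the direction of DUSP5 and PHLDA1.

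**Figure D4:**
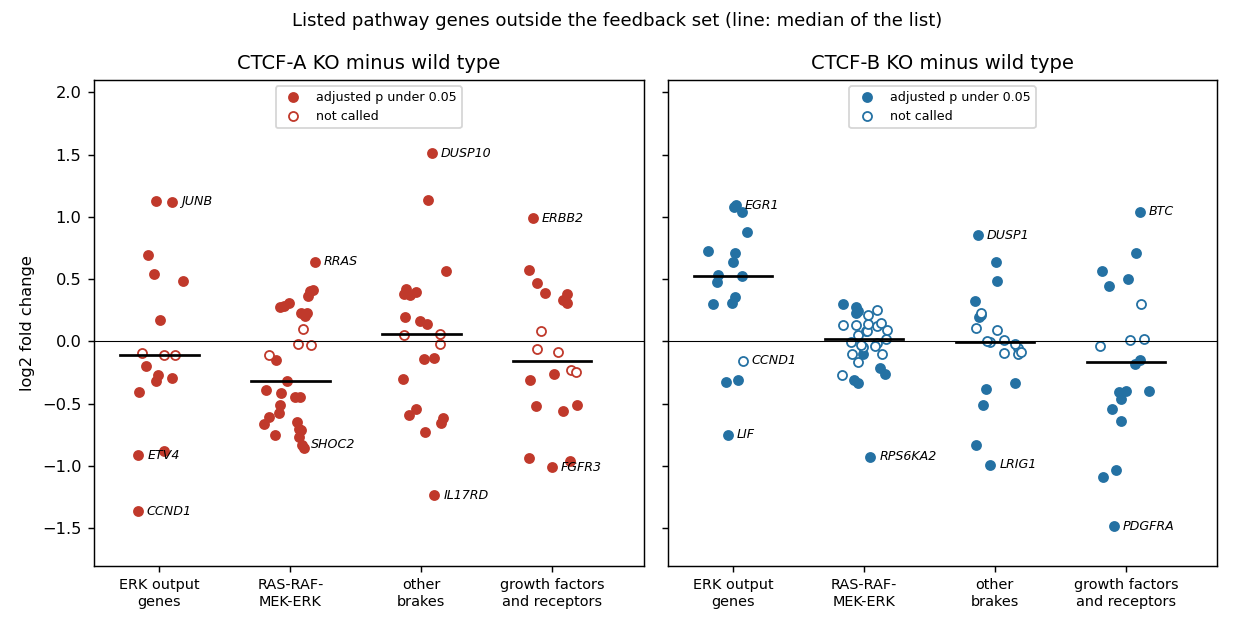
Log2 fold change against wild type (vertical axis) of each tested gene of the 4 pathway lists in CTCF-A KO and CTCF-B KO, filled where limma's adjusted p was under 0.05, with a line at the list's median. The ERK output list has its median at -0.11 in CTCF-A KO cells and 0.53 in CTCF-B KO cells, and the cascade list at -0.32 and 0.02.

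All 31 components of the cascade were listed. In CTCF-A KO against wild type 10 rose, 17 fell and 4 did not pass, with a median log2 fold change of -0.32. With the trend taken out 7 rose and 14 fell with a median of -0.03, and with replicate 4 alone 7 rose and 7 fell. SHOC2, a scaffold that aids RAF activation, fell by 0.83, PTPN11, the phosphatase SHP2, by 0.75, and SOS2, a RAS exchange factor, by 0.71. With replicate 4 alone these values were -0.28, -0.16 and -0.23 in that order, and none of the 3 passed (limma adjusted p = 0.095, 0.076 and 0.096). They were -0.49, -0.41 and -0.32 once the trend was taken out, and all 3 passed (limma adjusted p = 0.000177, 0.000376 and 0.000179). MRAS and RPS6KA2 held their size: MRAS, a RAS relative that works with SHOC2, was at -0.66 as deposited and -0.75 with replicate 4 alone, and RPS6KA2, a kinase that ERK activates, at -0.77 and -0.86. RRAS rose by 0.64 in CTCF-A KO, by 0.45 with the trend taken out and by 0.33 with replicate 4 alone.

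In CTCF-B KO against wild type 4 of the 31 cascade genes rose, 6 fell and 21 did not pass, with a median of 0.02. RPS6KA2 fell by 0.93 ± 0.06 (limma adjusted p = 4.31e-08) and was the one cascade gene that met the size rule in this comparison. With the trend taken out 12 rose and 6 fell, at a median of 0.04. Without CTCF-A KO replicate 4, which shares the estimate of spread, 17 of the 31 passed. The cascade genes that passed in CTCF-B KO had log2 fold changes of -0.93 to 0.30.

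Brakes outside the set moved in both directions. Of 29, 22 were listed. In CTCF-A KO 10 rose and 9 fell, in CTCF-B KO 6 rose and 5 fell, and for CTCF-A KO against CTCF-B KO 9 were higher and 9 lower. With the trend taken out 8 rose and 9 fell in CTCF-A KO, and 9 rose and 6 fell in CTCF-B KO. For CTCF-A KO against CTCF-B KO 6 were then higher and 12 lower, at a median of -0.16 beside 0.02 as deposited. DUSP10, a phosphatase that prefers the stress kinases JNK and p38, averaged 9.35 ± 0.17 in CTCF-A KO, 7.46 ± 0.07 in CTCF-B KO and 7.84 ± 0.08 in wild type (log2, mean ± SD, n = 4). It rose by 1.51 in CTCF-A KO (limma adjusted p = 1.15e-08) and fell by 0.38 in CTCF-B KO (limma adjusted p = 0.00189), which is the reverse of DUSP4 and DUSP6. PHLDA3, a relative of PHLDA1 that p53 induces, had the same order, with a rise of 1.13 in CTCF-A KO and a fall of 0.34 in CTCF-B KO. PHLDA2 rose by 0.57 in CTCF-A KO cells and by 0.48 in CTCF-B KO cells, as PHLDA1 was higher in both. The CTCF-A KO value of PHLDA2 was 0.37 with the trend taken out and 0.36 with replicate 4 alone.

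DUSP1, an immediate early nuclear phosphatase, rose by 0.85 in CTCF-B KO, and in CTCF-A KO its 0.06 did not pass (limma adjusted p = 0.419). With the trend taken out that value was -0.13 and passed (limma adjusted p = 0.0322). DUSP3 rose by 0.40 in CTCF-A KO cells and 0.64 in CTCF-B KO cells, and DUSP16, another JNK phosphatase, fell by 0.65 in CTCF-A KO. The CTCF-A KO value of DUSP16 was -0.55 with the trend taken out and -0.47 with replicate 4 alone. IL17RD, also called Sef, which retains active MEK and ERK in the cytoplasm, fell by 1.23 in CTCF-A KO and by 0.86 with replicate 4 alone, while its -0.10 in CTCF-B KO did not pass. LRIG1, which promotes the breakdown of the EGF receptor, fell in both, by 0.73 in CTCF-A KO cells and 0.99 in CTCF-B KO cells. CBL, the SPRY2-binding ligase, fell by 0.61 in CTCF-A KO and by 0.31 with replicate 4 alone. PTPRR, a receptor-type phosphatase that acts on ERK, fell by 0.83 in CTCF-B KO. RASAL2, a RAS-inactivating protein, fell by 0.51 in CTCF-B KO, and its CTCF-A KO value of -0.54 became -0.02 with replicate 4 alone and -0.09 with the trend taken out, neither of which passed.

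At the top of the route, 20 of 37 growth factors and receptors were listed, and in CTCF-A KO 7 rose and 8 fell, in CTCF-B KO 5 rose and 11 fell. With the trend taken out 6 rose and 7 fell in CTCF-A KO, and 7 rose and 11 fell in CTCF-B KO. PDGFRA, the receptor for platelet-derived growth factor, averaged 10.23 ± 0.31 in CTCF-A KO, 9.71 ± 0.15 in CTCF-B KO and 11.19 ± 0.05 in wild type (log2, mean ± SD, n = 4). It fell by 0.96 and 1.49 in the knockouts, in that order, and by 0.53 in CTCF-A KO with replicate 4 alone. IGF1R fell by 0.56 in CTCF-A KO cells and 1.03 in CTCF-B KO cells, and FGFR3 by 1.01 and 0.64. ERBB2 rose by 0.99 in CTCF-A KO and fell by 0.54 in CTCF-B KO. MET, the receptor for hepatocyte growth factor, rose by 0.71 in CTCF-B KO. In CTCF-A KO its value was -0.24 (limma adjusted p = 0.167), and with replicate 4 alone it was 0.30 and passed as higher (limma adjusted p = 0.0029). Without replicate 4 it was -0.43 and passed as lower.

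Among the ligands, BTC, a ligand of the EGF receptor, rose by 0.38 in CTCF-A KO cells and 1.04 in CTCF-B KO cells, and EGF rose by 0.56 in CTCF-B KO. PDGFA rose by 0.39 in CTCF-A KO cells and 0.50 in CTCF-B KO cells, and was the second closest profile to PHLDA1. PDGFD fell by 1.08 in CTCF-B KO, and its CTCF-A KO value of -0.51 became -0.03 with replicate 4 alone, which did not pass. It was -0.23 with the trend taken out, which passed (limma adjusted p = 0.00694). FGF2 fell by 0.94 in CTCF-A KO and by 0.52 with replicate 4 alone, and its value with the trend taken out was -0.46. TGFA fell by 0.51 in CTCF-A KO, and its 0.01 in CTCF-B KO did not pass. DDR2, a collagen receptor, rose by 0.57 in CTCF-A KO and by 1.08 with replicate 4 alone.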

How the data were processed

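Total RNA from 12 libraries of U251-APP cells, 4 each of CTCF-A KO, CTCF-B KO and wild type, was sequenced as read pairs. Groups came from the genotype labels, and the titles matched the deposited columns to the samples. The submitters' processing notes name Trimmomatic 0.33, featureCounts, DESeq2 and GRCh38.p7; the aligner, annotation and strand setting are not given in the sources used here, so opposite-strand neighbours that overlap may share reads. The deposited values are normalized expression deposited by the authors as log2, judging by their range of 1.34 to 17.97, by a transformation that is not recorded. Of 1963 values under 16 on the linear scale all 1963 were distinct, so whole reads were not recovered, depth is unknown and no counting interval is given. The number of deposited columns left unused was 0.

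Values were used as deposited, with no pseudocount. Genes at a linear value of at least 10 in at least 4 libraries were kept (11128; 50 removed), and limma 3.58.1 (R 4.3.3) was run with a mean per group over the 12 libraries together (trended empirical Bayes, two-sided, Benjamini-Hochberg, 0.05). The method was tested on simulated data. The GC and length trend of each library was fitted with natural splines (5 and 4 degrees of freedom) on its deviation from the wild-type mean, over the 99.7% of genes with both properties in GENCODE release 29, in which 11151 identifiers were found. The 9 genes, the pathway lists and the alternatives were chosen with earlier results of these data known. From each list up to 6 genes per direction and knockout were named, by size, among those with adjusted p under 0.05, an absolute log2 fold change of at least 0.5 and no overlap with wild type. A gene that the rule also named is not reported here. Alternatives were no filter and a linear minimum of 50, quantile normalization, median centring, a pseudocount of 16, no variance trend, only the 8 libraries compared, library quality weights, the replicate block, and each library left out. Replicate numbers did not pair the libraries. Upstream sequences came from RefSeq (GRCh38.p14).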

Additional observations from a re-analysis of the deposited data

Results flagged for a closer look

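Over 153 groups of 4 libraries examined for the 9 feedback genes and 42 named pathway genes, 7 held a library whose gap to its nearest neighbour exceeded Dixon's 95% limit for groups of this size. Chance gives about 1 in 20. None of the 7 concerned a feedback gene. For PLAUR, CTCF-A KO replicate 4 was lowest at 10.35 and CTCF-B KO replicate 2 was highest at 11.14, on the log2 scale. For CBL, CTCF-B KO replicate 1 was lowest at 10.85 and wild-type replicate 3 was highest at 11.11. PDGFD was lowest in replicate 2 of CTCF-B KO, at 8.35, and in replicate 2 of wild type, at 9.44. FGFR3 was lowest in wild-type replicate 3, at 8.76.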

How the results depend on the processing

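Of 648 values of the 9 genes under the alternatives tried, 602 stayed within the spread of the main value, 38 moved and 8 changed sign. Many of the 602 could not move, because a fold change here is a difference of group means. The filters, no variance trend, only the 8 libraries compared and the replicate block leave it as it is. Leaving out a library of a group that is not compared does so too. The 602 is therefore no measure of stability. SPRED1 in CTCF-A KO against wild type was 0.068 without the GC and length trend (also with the replicate block) and 0.047 when replicate 4 alone stood for CTCF-A KO. Its difference between CTCF-A KO and CTCF-B KO was then 0.0063 and 0.012, and that of PHLDA1 was 0.068 without the trend, with or without the block. The median of the 9 in CTCF-A KO was -0.40, -0.51 with library quality weights, whose estimation stopped before its convergence tolerance, -0.22 with replicate 4 alone and -0.47 to -0.30 with 1 library left out.

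Genes called in CTCF-A KO were 7002, and 4654 with replicate 4 alone, a fit in which the lone library is assumed to vary like the others. Genes called in CTCF-B KO were 4389, and 6601 in the 8 libraries compared, 7101 with quality weights and 6604 with replicate 4 alone. Cascade genes called were 27 in CTCF-A KO (14 with replicate 4 alone) and 26 between the knockouts (15). In CTCF-B KO they were 10, and 20 in the 8 libraries, 21 with weights, 18 without the trend, 19 without the trend and with the replicate block, 20 with replicate 4 alone and 8 to 17 with 1 library left out.

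Sign changes of pathway genes were counted where the value passed in at least 1 of the 2 fits. Without the trend, with or without the block, this held for PLAUR (-0.030) and DUSP1 (-0.13) in CTCF-A KO and for RPS6KA2 (-0.031) and RASAL2 (0.32) between the knockouts. With replicate 4 alone it held for MET in CTCF-A KO (0.30) and RASAL2 between the knockouts (0.48). The causes were not tested. Same-numbered libraries had correlations of -0.32 to 0.43, with 5 of 12 pairs over 0.1 and 4 of 12 libraries closest to their own number. The replicate block gave 7060, 4414 and 7420 genes called for CTCF-A KO, CTCF-B KO and CTCF-A KO against CTCF-B KO.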
